A study of Oryza sativa with 4 samples.

Results

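Catalases, superoxide dismutases and ascorbate peroxidases are the enzymes that clear superoxide and hydrogen peroxide in plant cells. Their genes were compared between rice coleoptiles (Oryza sativa, cultivar Nipponbare) that germinated without oxygen or in air. The members were chosen by symbol or synonym in the RefSeq gene table: the dismutase genes SODCC.1, SODCC.2 and RMSOD1, the peroxidase genes APX1 and APX2, and the catalase genes CAT-A, CAT-B and also CATC. Of these 8 symbols, 7 were matched to a gene with probe sets, 7 of the 17905 genes that the array's annotation names, and CATC was not analysed here. The 7 genes had 18 probe sets that the annotation assigns to a single gene: 5 for CAT-B, 4 for APX2, 3 each for CAT-A and RMSOD1, and 1 each for SODCC.1, SODCC.2 and APX1.

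The anoxic group was 2 arrays of coleoptiles from seeds kept for 4 days at 28 °C in the dark inside an anaerobic work station filled with N2 and H2 at 90 to 10, and the aerobic group, the control, was 2 arrays from seeds kept as long in air, also dark and at 28 °C. All seeds were of one cultivar with no further treatment named. The primary leaf was dissected out of aerobic coleoptiles, while coleoptiles grown in anoxia have none according to the labels, so that the dissection itself and the presence of a leaf cannot be told apart from oxygen supply. Nothing in the labels says whether the 2 replicates of a group were separate cultures. The p-values rest on the spread among 2 arrays a group, pooled with that of the other tested probe sets, and part of this spread may be technical.

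Superoxide forms where electrons leak onto oxygen, for example from the respiratory chain and from NADPH oxidases. Superoxide dismutases turn it into hydrogen peroxide and oxygen. Of those whose genes are read below, the cytosolic and plastid enzymes hold copper and zinc and the mitochondrial enzyme holds manganese. Hydrogen peroxide is then split by catalases, which sit in peroxisomes and need no electron donor, or is reduced by ascorbate peroxidases, which use ascorbate and depend on enzymes that recycle it.

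The deposited values were GCRMA intensities on a linear scale, 1 for each probe set on each array, with array medians between 7.36 and 7.55. Tests used log2(intensity + 1). A probe set was tested when its mean over the 4 arrays reached 4 on that scale, and it was called when limma gave an adjusted p under 0.05 and a log2 change of at least 1 in either direction. Values after ± are limma's standard errors, which use a spread pooled across probe sets and are not the replicate spread alone. Probe sets for reporter sequences served as background, and the brightest of these 64 had a group mean of 4.05 on the log2 scale. Of the 18 probe sets of the 7 genes, 15 were tested. The other 3, of RMSOD1 (Os.4610.1.A1_at) and APX2 (Os.12693.1.S2_at and Os.12693.3.S1_at), read below the background value on all 4 arrays. In the probe set names, the ending _s_at marks probes shared with other transcripts and _x_at marks probes that may bind other sequences.

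Markers of other tissues were examined first. Of 6 leaf markers, 4 were on the array. CAB2R, a chlorophyll-binding protein gene, and RBCS1 were at background in both groups, and RBCS, for the small Rubisco subunit, read 7.47 and 7.27 in anoxic and 7.42 and 7.21 in aerobic arrays (log2), with no called difference. PPDK1, for pyruvate phosphate dikinase, read 10.60 and 9.28 in anoxic and 8.33 and 9.46 in aerobic arrays, was not called (limma, adjusted p = 0.24) and made up most of the sum over this list. The summed leaf marker intensity lay between 792 and 1740 in anoxic and between 507 and 869 in aerobic arrays, and none of the 2 tested genes was called. Of 7 seed markers on the array, 5 were at background in both groups and GLB1, a globulin gene, was lower in anoxic arrays (6.78 against 8.46 on average, log2). The remaining seed marker, GLUA-2, read 5.61 and 5.46 in anoxic and 5.44 and 5.74 in aerobic arrays and was not called (limma, adjusted p = 0.843). The summed seed marker intensity was 188 and 194 in anoxic and 418 and 451 in aerobic arrays, and GLB1 made up most of it. CESA4, CESA7 and CESA9, cellulose synthase genes of lignifying tissue, were all at background in anoxic arrays, where their summed intensity was 23.3 and 24.9, against 68.6 and 78.5 in aerobic arrays, where CESA4 and CESA7 averaged 5.05 and 5.02 (log2). Over 7 housekeeping controls of the array, the 3′ probe set exceeded the 5′ probe set by -1.40 to 3.43 log2 units in anoxic and by -0.91 to 3.24 in aerobic arrays. The groups did not overlap in 3 of the 7: this excess was 1.46 and 1.81 in anoxic against 1.06 and 1.38 in aerobic arrays for actin, 1.73 and 1.90 against 1.70 and 1.56 for cyclophilin, and -1.40 and -1.27 against -0.91 and -0.82 for ubiquitin. The part of tissue composition and RNA quality in the results below was not tested.

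Of the 7 genes, 3 were called lower in anoxic than in aerobic coleoptiles and 4 were not called. CAT-A and both genes for cytosolic copper/zinc superoxide dismutase, SODCC.1 and SODCC.2, were lower in anoxic coleoptiles. CAT-B, the mitochondrial manganese enzyme RMSOD1 and the cytosolic ascorbate peroxidases APX1 and APX2 were not called in any tested probe set. On the level of probe sets, 5 of 15 were called (33.3%), all lower, against 32.1% of all 18826 tested probe sets in either direction and 16% lower, and 3 of the 5 belonged to CAT-A. On the level of genes, each read by its brightest tested probe set, 3 of 7 were called (42.9%), all lower, against 33.9% of 12291 genes in either direction and 18% lower. The share of probe sets called in either direction was thus near that of the whole array, and the shares called lower were above it, which with so few genes and no test is a description. The median log2 change of the 7 genes was -0.05, against 0.03 over all genes. The 2 arrays of one group lay on the same side of both arrays of the other in 7 of the 15 probe sets, against 75.7% of all tested probe sets.

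**Figure D1:**
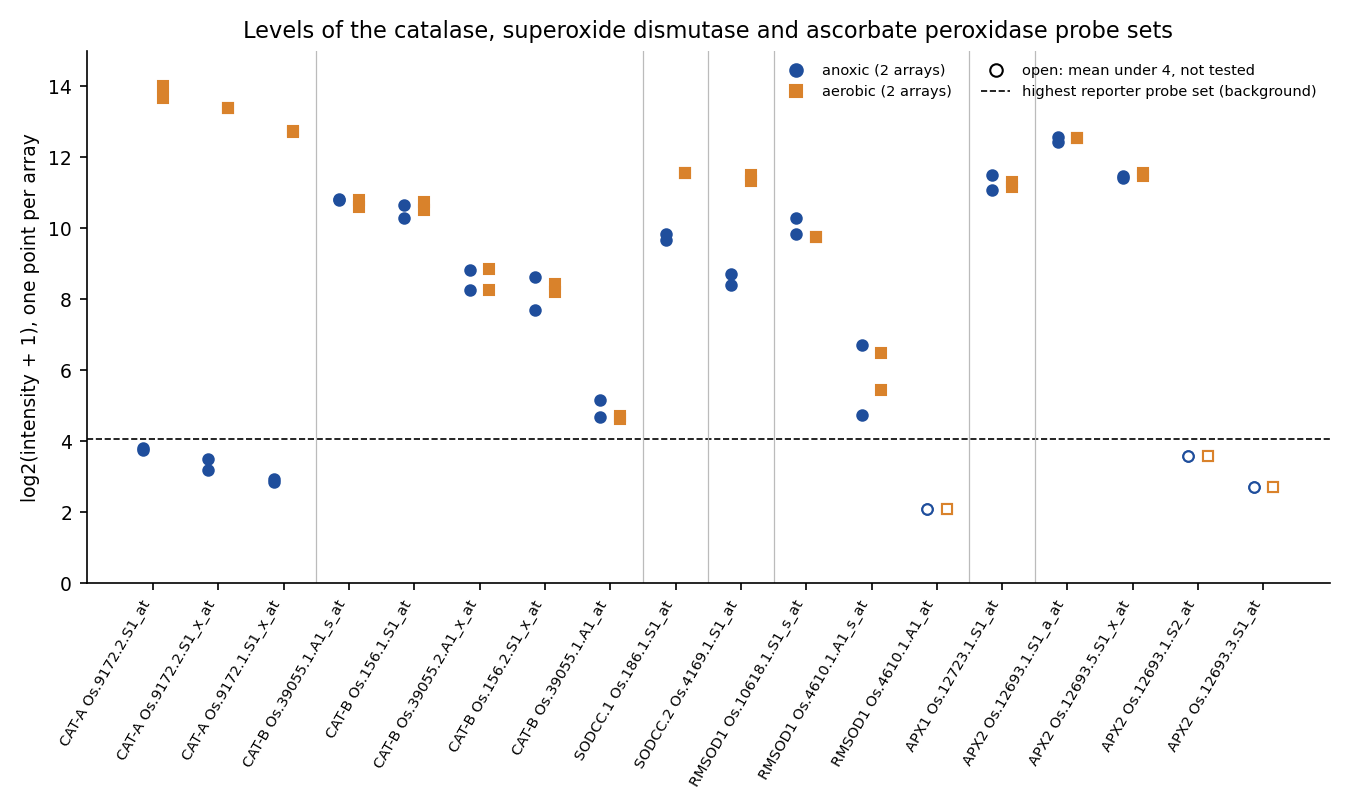
Level of each of the 18 probe sets on every array, as log2(intensity + 1), with anoxic arrays as circles and aerobic arrays as squares. Probe sets that were not tested are open, and the dashed line is the highest group mean of any reporter probe set, 4.05. All 3 CAT-A probe sets lie under that line in anoxic arrays and above 12 in aerobic arrays.

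CAT-A (LOC4328073), a catalase, was lost to background in anoxia by all of its probe sets. Os.9172.2.S1_at had intensities of 12.6 and 13.2 in anoxic arrays, against 16322 and 13062 in aerobic arrays. Os.9172.2.S1_x_at had 10.3 and 8.18 in anoxic arrays, against 10808 and 10615 in aerobic arrays. Os.9172.1.S1_x_at had 6.65 and 6.20 in anoxic arrays, against 6763 and 6836 in aerobic arrays. The groups were far apart in each probe set and the replicates of a group lay within 0.32 log2 units of each other.

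Because the anoxic readings of CAT-A lay below the brightest reporter probe set, its fall is given as a bound against that value: at least 879-fold for Os.9172.2.S1_at, at least 645-fold for Os.9172.2.S1_x_at and at least 409-fold for Os.9172.1.S1_x_at. The adjusted p of limma's fit was 0.000568 for each. All 3 probe sets passed the filter on mean level through their aerobic readings, and the reading of 16322 was the highest of any probe set on aerobic array 1. The probe sets of a gene share the same RNA and are no independent replicates. In whole coleoptiles, fewer cells that hold a transcript and less of it per cell cannot be told apart.

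CAT-B (LOC4342124), the other catalase analysed here, was measured by 5 tested probe sets, none of them called. The brightest, Os.39055.1.A1_s_at, read intensities of 1818 and 1789 in anoxic arrays, against 1560 and 1769 in aerobic arrays. Os.156.1.S1_at read 1612 and 1255 in anoxic arrays, against 1466 and 1725 in aerobic arrays. In the first of these both anoxic arrays were slightly above both aerobic ones, and in the second the groups overlapped. The log2 changes of these probe sets were 0.12 ± 0.17 (95% interval -0.35 to 0.58) and -0.16 ± 0.22 (-0.75 to 0.42), with limma adjusted p = 0.619 and 0.591. Over all 5 probe sets the changes ran from -0.16 to 0.25 log2 units, and the widest interval, that of Os.156.2.S1_x_at, reached from -1.13 to 0.84. A change of CAT-B of the size seen in CAT-A lies outside all of these intervals.

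Within each array, the CAT-A reading minus the CAT-B reading (brightest probe sets, log2) was -7.06 and -6.98 in anoxic and 3.39 and 2.88 in aerobic coleoptiles. With anoxic CAT-A readings set to the background value, the fall of CAT-A relative to CAT-B was at least 9.90 log2 units, and the groups did not overlap. The exact permutation test of the difference as read over the 4 arrays gave p = 0.333 (2-sided), the smallest that 2 arrays against 2 allow. The CAT-B probe set used here is of the _s_at kind, so its reading may include other transcripts.

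SODCC.2 (LOC4344210), for a cytosolic copper/zinc superoxide dismutase, had intensities of 419 and 337 in anoxic arrays, against 2895 and 2554 in aerobic arrays. SODCC.1 (LOC4332846), for the other cytosolic enzyme of this kind, had 915 and 819 in anoxic arrays, against 3040 and 3042 in aerobic arrays. Both anoxic arrays lay below both aerobic arrays for either gene, and both genes stayed well above background in anoxia. SODCC.2 was 7.22-fold lower in anoxic coleoptiles, a log2 change of -2.85 ± 0.20 (95% interval -3.40 to -2.31; limma, adjusted p = 0.00223). SODCC.1 was 3.51-fold lower, a log2 change of -1.81 ± 0.17 (-2.27 to -1.35; adjusted p = 0.00378).

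The fall was larger for SODCC.2 than for SODCC.1 in these arrays. SODCC.2 minus SODCC.1 was -1.13 and -1.28 log2 units in anoxic and -0.07 and -0.25 in aerobic arrays, a difference between their changes of -1.04 (exact permutation p = 0.333, 2-sided, the smallest possible). Each of these genes had a single probe set, so the comparison rests on 1 reading per gene and array.

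RMSOD1 (LOC4338417), for the manganese superoxide dismutase of mitochondria, was not called. Its brightest probe set, Os.10618.1.S1_s_at, had intensities of 1261 and 921 in anoxic arrays, against 864 and 870 in aerobic arrays. Both anoxic arrays were above both aerobic arrays, but the 2 anoxic arrays differed from each other by more than the lower of them differed from the aerobic arrays. The log2 change was 0.31 ± 0.22 (95% interval -0.29 to 0.91; limma, adjusted p = 0.32). The dimmer Os.4610.1.A1_s_at had 105 and 26.0 in anoxic arrays and 89.0 and 42.5 in aerobic arrays. Here the replicates of a group lay 1.97 log2 units apart in anoxia and 1.05 in air, and the change of -0.22 had an interval from -2.31 to 1.86, too wide to show a change of a few fold in either direction.

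The difference between the copper/zinc and manganese genes was read within arrays. Both tested probe sets of RMSOD1 are of the _s_at kind, so its readings may include other transcripts. SODCC.2 minus RMSOD1 was -1.59 and -1.45 log2 units in anoxic and 1.74 and 1.55 in aerobic arrays. SODCC.1 minus RMSOD1 was -0.46 and -0.17 in anoxic and 1.81 and 1.80 in aerobic arrays. Neither pair overlapped between groups (exact permutation p = 0.333 for each, 2-sided, the smallest possible). In all, 5 such pairs were compared, and no adjustment could bring a p of that size under a usual threshold.

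APX2 (LOC4344397), a cytosolic ascorbate peroxidase, had intensities of 6131 and 5467 in anoxic arrays, against 5982 and 6007 in aerobic arrays (Os.12693.1.S1_a_at). Its second tested probe set, Os.12693.5.S1_x_at, had 2861 and 2747 in anoxic arrays, against 3034 and 2817 in aerobic arrays. The groups overlapped in both probe sets. The log2 changes were -0.05 ± 0.17 (95% interval -0.51 to 0.41; limma, adjusted p = 0.838) and -0.06 ± 0.17 (-0.51 to 0.39; adjusted p = 0.799), which on the linear scale leaves room for anoxic levels between 0.703 and 1.33 times the aerobic level.

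APX1 (LOC4332474), the second cytosolic ascorbate peroxidase, had intensities of 2891 and 2178 in anoxic arrays, against 2533 and 2302 in aerobic arrays. The anoxic arrays enclosed the aerobic ones. The log2 change was 0.06 ± 0.22 (95% interval -0.53 to 0.64; limma, adjusted p = 0.861), or 0.693 to 1.56 times the aerobic level. APX1 minus APX2 was -1.08 and -1.33 log2 units in anoxic and -1.24 and -1.38 in aerobic arrays, which overlap (exact permutation p = 0.667, 2-sided).

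**Figure D2:**
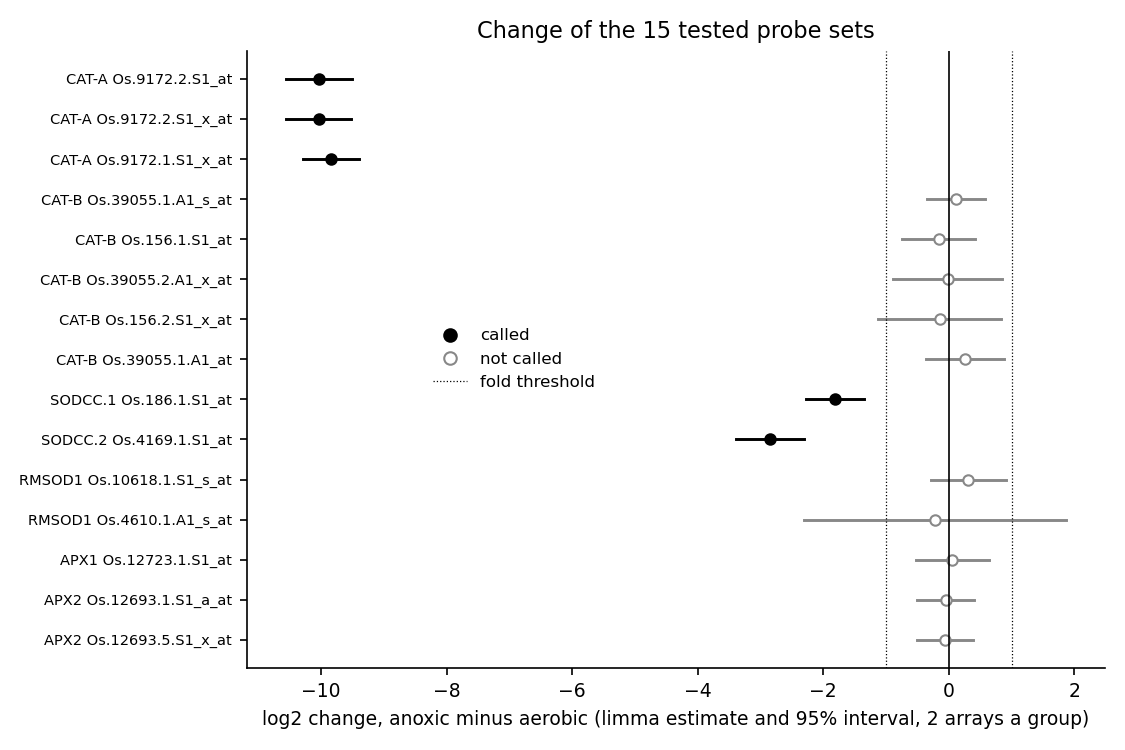
The log2 change, anoxic minus aerobic, of the 15 tested probe sets with limma's 95% interval. Filled points were called, and dotted lines mark a change of 1 log2 unit. The 3 CAT-A probe sets lie near -10 as read, with anoxic readings below background, SODCC.2 and SODCC.1 at -2.85 and -1.81, and the other 10 within 0.31 of 0.

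The 2 anoxic arrays differed in the same direction in nearly all of these probe sets, and the 2 aerobic arrays did not. Anoxic replicate 1 was above anoxic replicate 2 in 14 of the 15 tested probe sets, against 56.0% of all tested probe sets. Aerobic replicate 1 was above aerobic replicate 2 in 7 of the 15, against 41.5%. The 15 probe sets stem from 7 genes and are no independent readings. The 3 of CAT-A were below background in anoxic arrays, where the order of readings has no meaning. The 5 falls were called in each fit that left out 1 array. Such a fit sets 1 array against 2, and the lone array is assumed to vary like those of the other group.

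**Figure D3:**
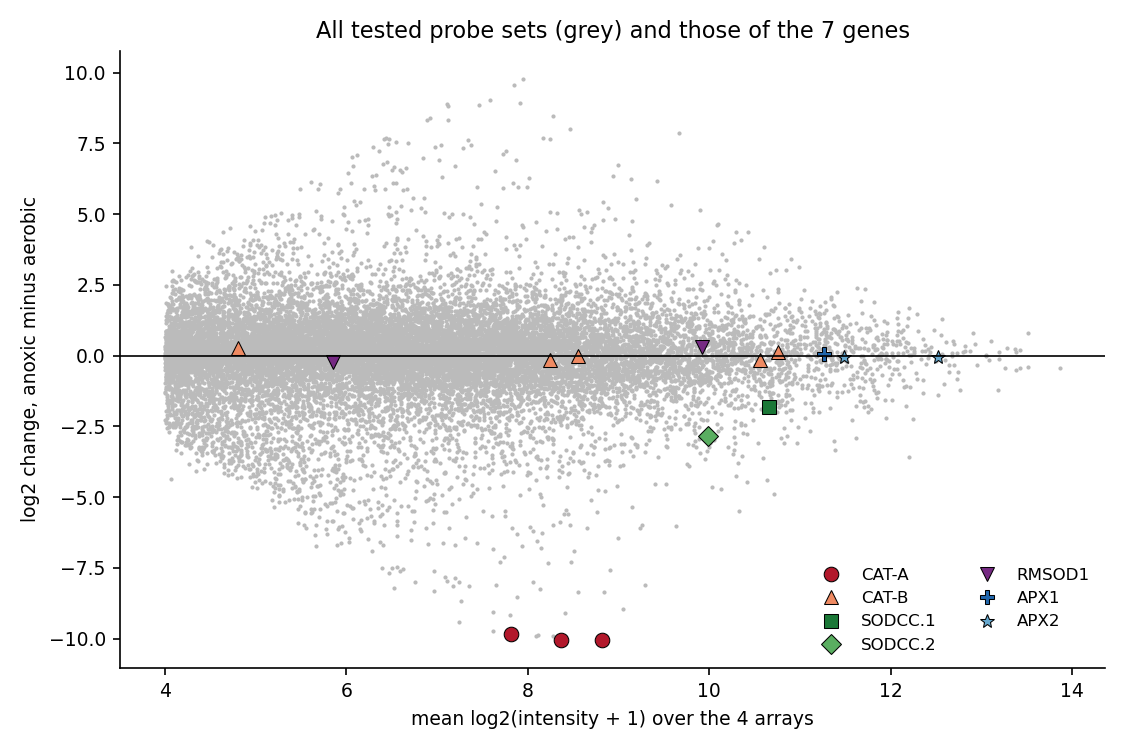
The log2 change, anoxic minus aerobic, against the mean log2 level over the 4 arrays, for all 18826 tested probe sets in grey and the 15 of the 7 genes in colour. The CAT-A probe sets, plotted as read, lie at the lower edge of the cloud, the 2 SODCC genes below its middle, and the others near 0.

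The genes most like each member were sought among 1825 tested genes with a symbol, by the Euclidean distance of mean-centred log2 values over the 4 arrays. For CAT-A the nearest was GER1 (LOC4344840), with log2 levels of 3.02 and 3.27 in anoxic and 12.84 and 13.25 in aerobic arrays (distance 0.55), and then BURP2 (LOC4338119) at a distance of 1.57, with 5.27 and 3.88 in anoxic and 13.34 and 13.69 in aerobic arrays. The anoxic readings of CAT-A, of GER1 and of BURP2 on anoxic array 2 were below background, so these distances rest partly on values with no order. For SODCC.2 they were LOGL5 (0.14), with a change of -2.85, and OsSAPK9 (0.20), which was at background in anoxic arrays and lower by at least 5.28-fold. For SODCC.1 they were PDHE1-A, a subunit gene of pyruvate dehydrogenase (0.10), and OsXRT5 (0.15), with changes of -1.77 and -1.93. For the uncalled members they were THF1 and OsSGT1 (CAT-B), IAA9 and TPR3 (RMSOD1), OsRPT1b and RYMV1 (APX1), and EF-1-alpha and CDKC-1 (APX2), all at a distance within 0.09. With 4 arrays in 2 groups, this likeness says mainly that the genes differ between groups by a similar amount.

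The surrounding redox and peroxisome genes were read from lists by symbol, 51 genes in 12 classes that held any gene, of which 39 were tested, the 7 members included. Of the 39, 8 were higher and 11 lower in anoxic coleoptiles, against 15.9% higher and 18% lower among all 12291 genes, and the median change was -0.19. Of the 32 that are no members, 8 were higher and 8 lower. Without aerobic replicate 1 the number called over the 39 was 12, with 3 higher and 9 lower, and with no filter on mean level it was 10, with 1 higher and 9 lower.

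The NADPH oxidase gene RBOHB and the plastid copper/zinc dismutase gene were lower as well. The plastid copper/zinc superoxide dismutase gene sodCp (LOC4346329) read 6.91 and 6.85 in anoxic and 8.37 and 8.56 in aerobic arrays (log2), a change of -1.59 ± 0.17 (limma, adjusted p = 0.00531). With the members SODCC.1 and SODCC.2, already counted above, all 3 copper/zinc genes listed here were called lower, against 18% of all 12291 genes. RBOHB (LOC4326027), an NADPH oxidase that makes superoxide at the plasma membrane, read 7.15 and 7.25 in anoxic and 8.99 and 9.15 in aerobic arrays, a change of -1.87 ± 0.17 (adjusted p = 0.0037). The alternative oxidase gene AOX1, whose enzyme passes respiratory electrons to oxygen by a side route, read 10.00 and 8.40 in anoxic and 8.87 and 9.29 in aerobic arrays and was not called (adjusted p = 0.887). The call of sodCp was lost without aerobic replicate 2 (adjusted p = 0.0537), and AOX1 changed by -0.68 without anoxic replicate 1.

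Among the other ascorbate peroxidases, 1 of 4 tested genes was called, against 33.9% of all 12291 genes in either direction. APX4 (LOC4346247), a peroxisomal form, read 6.03 and 6.35 in anoxic and 7.45 and 7.58 in aerobic arrays (log2), a change of -1.33 ± 0.20 (limma, adjusted p = 0.0106). Its call was lost without aerobic replicate 1 (0.0774), without aerobic replicate 2 (0.0838) and with no filter on mean level (0.0811). APX7, a plastid form, was lower by less than the fold threshold, at -0.74 ± 0.19 (adjusted p = 0.0382), and APX5 and APX6 had changes of -0.49 and -0.22 (adjusted p = 0.241 and 0.553). APX3 and APX8 were not tested. Of 2 tested genes that recycle ascorbate, neither was called, with MDAR5, a monodehydroascorbate reductase, at -0.79 ± 0.16 (adjusted p = 0.023).

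Peroxiredoxins, thiol enzymes that also reduce peroxides, were called in all 5 tested genes, 4 lower and 1 higher. Among all 12291 genes, 33.9% were called in either direction and 18% lower. PRXIIE-1 read 6.31 and 6.12 in anoxic and 8.63 and 8.69 in aerobic arrays (log2), and PRXIIC read 8.76 and 8.82 against 11.11 and 11.02, with changes of -2.44 ± 0.17 and -2.28 ± 0.16 (limma, adjusted p = 0.00224 and 0.00229). PRXIIF, a mitochondrial form, fell at least 4.19-fold to background, and bas1, the 2-Cys form of plastids, changed by -1.30. PRXIIF passed the filter on mean level through its aerobic readings. The gene that rose was R1C-Prx, the 1-Cys form known from seeds, with 9.51 and 8.44 in anoxic and 4.32 and 3.98 in aerobic arrays. The calls of bas1 and R1C-Prx were lost without either aerobic array (adjusted p from 0.0535 to 0.0764) and with no filter on mean level (0.0635 and 0.0721). GRC2 (LOC4331112), a glutathione reductase that keeps glutathione reduced for ascorbate recycling, read 7.47 and 7.22 in anoxic and 9.52 and 9.54 in aerobic arrays and changed by -2.19 ± 0.18 (adjusted p = 0.00301). Of 3 genes for thioredoxins and their reductases, TRXM rose at least 2.91-fold from background (limma, adjusted p = 0.016). TRXM passed the filter on mean level through its anoxic readings. Its call was lost without aerobic replicate 1 (0.128) or 2 (0.107), with no filter (0.188) and with values under 5 set to 5 (0.454). NTRB, a thioredoxin reductase, was just short of the fold threshold at -0.99 ± 0.16 (adjusted p = 0.0131).

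For copper delivery, 8 genes were matched and 4 of them tested. Of these 4, 3 transporters were higher in anoxic coleoptiles, against 15.9% of all 12291 genes. COPT1 (LOC4324610), a copper transporter, read 11.09 and 11.35 in anoxic and 6.71 and 6.17 in aerobic arrays (log2), a rise of 4.78 ± 0.26 (limma, adjusted p = 0.00143). COPT2 (LOC4338846) read 7.10 and 7.91 in anoxic arrays and was at background in aerobic arrays. That is a rise of at least 11.0-fold (limma, adjusted p = 0.00247), and the gene passed the filter on mean level through its anoxic readings. Another gene listed as COPT2 (LOC4324611) was on the array but not tested. COPT7 rose by 1.55 ± 0.22 (adjusted p = 0.00991). CCS (LOC4336726), the chaperone that hands copper to copper/zinc superoxide dismutase, read 8.42 and 8.23 in anoxic and 7.98 and 8.50 in aerobic arrays and was not called (adjusted p = 0.808). The call of COPT7 was lost without aerobic replicate 1 (0.0635), without anoxic replicate 1 (0.0615) or 2 (0.0565) and with no filter on mean level (0.0986), as was that of COPT2 with no filter (0.0587).

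Genes of the peroxisome, the compartment of catalase, had 3 rises and 0 falls among 8 tested genes. The share called was 37.5%, near the 33.9% of all 12291 genes called in either direction, while 15.9% of all genes were called higher. With 8 genes and no test this is a description. GLO5, a glycolate oxidase gene by symbol, the enzyme class that makes hydrogen peroxide in peroxisomes, read 7.48 and 7.24 in anoxic and 4.59 and 5.10 in aerobic arrays (log2), a rise of 2.51 ± 0.25 (limma, adjusted p = 0.00425). GLO3 rose by 1.11 ± 0.26 (adjusted p = 0.0328). The other tested genes of this family were not called, with GLO4 at -0.66 ± 0.17 (adjusted p = 0.0424), short of the fold threshold, and GLO1 at 0.12 ± 0.22 (0.689). Of the PEX11 genes, named for a peroxisome proliferation factor, PEX11-1 read 3.95 and 4.12 in anoxic and 4.58 and 5.73 in aerobic arrays and was not called (adjusted p = 0.105; 0.0495, called lower, with arrays scaled to the same median), nor was PEX11-5 at -0.19 ± 0.18 (0.448). MS, a malate synthase of the glyoxylate cycle, rose by 2.39 ± 0.39 (adjusted p = 0.013). ICL, the isocitrate lyase of the same cycle, read 11.26 and 10.51 in anoxic and 4.63 and 8.40 in aerobic arrays and was not called (adjusted p = 0.0605), the aerobic arrays lying 3.77 log2 units apart. It was called higher under 5 alternatives, namely quantile normalization (0.0243), scaling to the same median (0.0184), a filter at a mean of 6 (0.0372), the crossed replicate block (0.0201) and without aerobic replicate 2 (0.0395), and its change ran from 2.49 to 6.26 when 1 array was left out. LSD1, a zinc finger gene whose Arabidopsis relative binds catalases, had a change of -0.14 ± 0.29 (adjusted p = 0.733). The calls of GLO3 and MS were each lost without aerobic replicate 1 or 2 or anoxic replicate 1 (adjusted p from 0.0646 to 0.171), with no filter (0.228 and 0.164) and with values under 5 set to 5 (0.0918 and 0.0642). The call of GLO3 was also lost with the replicate number as a block (0.0583), and that of GLO5 with no filter (0.0688).

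**Figure D4:**
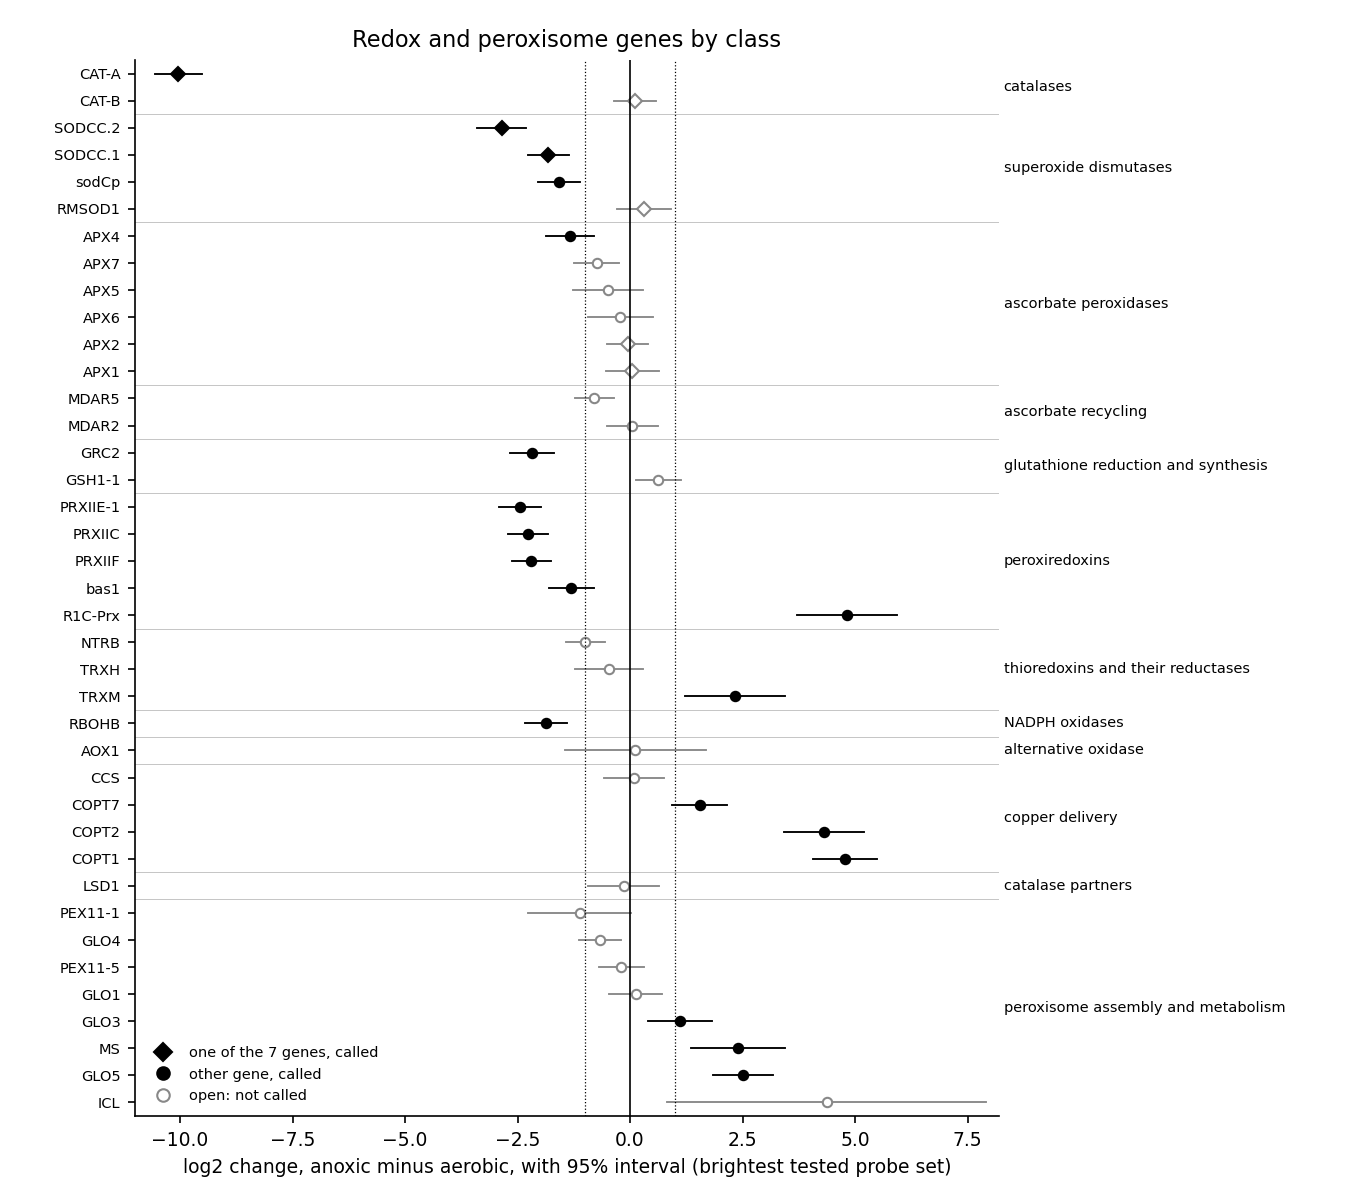
The log2 change, anoxic minus aerobic, of the 39 tested redox and peroxisome genes by class, each read by its brightest tested probe set, with limma's 95% interval. Diamonds are the 7 genes, circles the other genes, and filled symbols were called. The called copper/zinc dismutases and all peroxiredoxins but R1C-Prx lie left of 0, and the called copper transporters lie right of it.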

How the data were processed

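Per the labels, RNA of rice coleoptiles was hybridised to Affymetrix Rice Genome GeneChips, 2 anoxic and 2 aerobic arrays. The authors deposited a linear intensity for each probe set, made with GCRMA per the submitters' processing notes (settings: not given in the sources used here). From these, log2(intensity + 1) was computed with no further scaling. Of 57381 probe sets, 123 Affymetrix controls and 64 reporters were left out. Of the rest, 22436 had 1 gene in the platform annotation, which can be old, 95 had several and 34663 none. Names came from the RefSeq table of assembly ASM3414082v1.

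The 18826 probe sets whose mean reached 4 were fitted by lmFit and eBayes of limma 3.58.1 (R 4.3.3; 2-sided tests), and p-values were Benjamini-Hochberg adjusted over all of them. The fit had 2 residual degrees of freedom and 2.34 from eBayes. An array has no depth, and the number of arrays limits precision. The fit was tested on simulated data drawn from its own variance model, which cannot show whether that model holds for these arrays.

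The members, lists and naming rule were chosen with earlier results of these data known. Per class at most 2 rises and 2 falls were to be named, or the smallest p. The 2 nearest genes of each member were added. APX5 to APX7, PRXIIF, bas1, COPT7, CCS, GLO1, GLO3, GLO4, PEX11-1, PEX11-5, ICL and NTRB were named after their values were seen. Lists for glutathione peroxidases and ferritins matched no symbol, and a histone methyltransferase that shares the name TRX1 was removed. Alternatives covered pseudocount, scaling, filter, floor, variance trend, replicate block and leaving out each array. No sequence was printed, as none was in the tables used here.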

Additional observations from a re-analysis of the deposited data

How the results depend on the processing

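The 5 called probe sets of CAT-A, SODCC.1 and SODCC.2 were called lower under all alternatives that used all 4 arrays. When 1 array was left out, the log2 change ran from -1.89 to -1.73 for SODCC.1 and from -3.01 to -2.69 for SODCC.2. For CAT-A it ran from -10.2 to -9.80 as read over its probe sets. Without either aerobic array, the adjusted p of SODCC.1 in limma's fit came close to the threshold. The number of probe sets called over the array was 1709 with no filter on mean level, 3829 with a mean of at least 6 and 3348 with values under 5 set to 5, against 6036, and 2083 to 4253 when 1 array was left out. Over the redox and peroxisome lists it was 10 with no filter, against 19, and 12 to 18 without 1 array. The cause was not tested, though leaving out an array removes a residual degree of freedom. Under quantile normalization 2 uncalled values changed sign, APX2 (Os.12693.1.S1_a_at) to 0.059 and CAT-B (Os.39055.2.A1_x_at) to 0.025. Uncalled values also changed sign when 1 array was left out: APX1 ran from -0.15 to 0.26, APX2 from -0.13 to 0.033, CAT-B from -0.34 to 0.020 (Os.156.1.S1_at), -0.61 to 0.32 (Os.156.2.S1_x_at) and -0.33 to 0.29 (Os.39055.2.A1_x_at), RMSOD1 from -1.21 to 0.76 (Os.4610.1.A1_s_at), AOX1 from -0.68 to 0.92, APX6 from -0.51 to 0.075, LSD1 from -0.46 to 0.19, GLO1 from -0.052 to 0.30 and CCS from -0.18 to 0.35. Deviations of same-numbered arrays from their group means had r = -0.14 across probe sets. With 2 arrays a group, this value cannot show whether the numbers pair arrays by culture or batch, and the labels do not say. With the replicate block 5556 probe sets were called, and 5 of the members' as before. With the crossed pairing, chosen after seeing the data, it was 6467 and 5.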
